A study of Mus musculus with 24 samples.

Results

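Added miR-125b was compared with a control construct in mouse fetal liver cells kept on doxycycline to day 13, by RNA sequencing of 3 libraries per construct. The 6 libraries were chosen by their labels and make up 6 of the 24 libraries of the series. The 3 miR-125b libraries and the 3 control libraries carry replicate numbers 1 to 3, and libraries with the same number were compared as pairs. The cells came from E12.5 to E13.5 embryos of B6J.129(Cg) mice that carry the allele Gt(ROSA)26Sortm1.1, a Rosa26 insertion named CAG-cas9*,-EGFP (Fezh/J) that expresses Cas9 and EGFP from the CAG promoter. Cells of both groups carried sgGata1, a guide RNA against Gata1, and are called Gata1s fetal liver cells in the labels. Both groups were given doxycycline at 1 ug/mL for 13 days, and they differ by transgene2, which is miR-125b in one group and miR-ctrl in the other. The labels do not say whether replicates came from separate embryos or cultures, so the spread behind a p-value may be technical. That spread was taken over all 24 libraries after differences between replicate numbers were removed. Libraries of different days were treated as independent, which the labels do not state. The promoter of the constructs, the sorting of the cells and the share of cells carrying each edit are not given in the sources used here.

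MicroRNAs guide Argonaute proteins to messenger RNAs through a short seed near their 5′ end, usually to matches in the 3′ untranslated region (UTR), and lower the level or the translation of the target. miR-125b is known in blood formation for expanding progenitor cells and for acting in several leukaemias. GATA1 is the zinc finger factor needed for megakaryocytes, red cells, mast cells and eosinophils, and GATA1s is its short form without the amino-terminal part, seen in the megakaryoblastic leukaemia of Down syndrome. ARID3A, an AT-rich DNA-binding factor, is named in the title of the series as the target of miR-125b in this leukaemia. The comparison at day 13 thus asks how gene expression differs between the miR-125b and control constructs in cells labelled as Gata1s and on doxycycline.

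The mature miRNA and 5 of its possible sites are shown, in Arid3a, Abtb1 and Klf13 from the list of reported targets and in Ptpn18, a lower gene named below. The miRNA comes from the RefSeq table of build GRCm38.p6 and is given with its seed, bases 2 to 8, in capitals. The sites are in the longest annotated 3′ UTRs of GENCODE M21 on GRCm38, with the seed match in capitals. The 8-base sites hold CTCAGGGA, the seed match followed by an A, and the 7-base sites hold CTCAGGG alone. The Arid3a 3′ UTR of 3082 bases held 6 matches, 2 of them 8-base sites, at chr10:79952887-79952894 and chr10:79953820-79953827 on the plus strand. The match in Abtb1, which encodes an ankyrin repeat and BTB domain protein, is at chr6:88840246-88840252 on the minus strand. The match in Klf13, a zinc finger transcription factor, is at chr7:63891252-63891259 on the minus strand. The match in Ptpn18, a protein tyrosine phosphatase, is at chr1:34473768-34473774 on the plus strand.
mmu-miR-125b-5p: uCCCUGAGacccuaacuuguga
Arid3a 8-base site, upstream: gcctcctgtgcCTCAGGGAtgacagtg
Arid3a 8-base site, downstream: tgggtaactggCTCAGGGAtatagcag
Klf13 8-base site: accccccctttCTCAGGGAtgaacgcg
Abtb1 7-base site: ccatctcctacCTCAGGGtcttctca
Ptpn18 7-base site: aataaaagtttCTCAGGGcagaaaaa

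The 6 libraries held 16414818 to 20910928 counts and 17061 to 17420 genes with at least 1 count. No replicates of a group agreed within sampling noise. Levels are given as CPM, which are counts scaled to a common library total with factors from the trimmed mean of M values (TMM). The replicate number separated the libraries more than the construct did. On the first principal component of the 6 libraries, with 49.4% of the variance, the replicate number explained 94.8% and the construct 4.40%. On the third component, with 11.5% of the variance, the construct explained 92.6%. Deviations from the group means correlated at 0.584, 0.680 and 0.482 across genes within the 3 day 13 pairs, genes not being independent replicates. The test was fitted with the replicate number as a block, because the comparison pairs the libraries by that number.

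**Figure D1:**
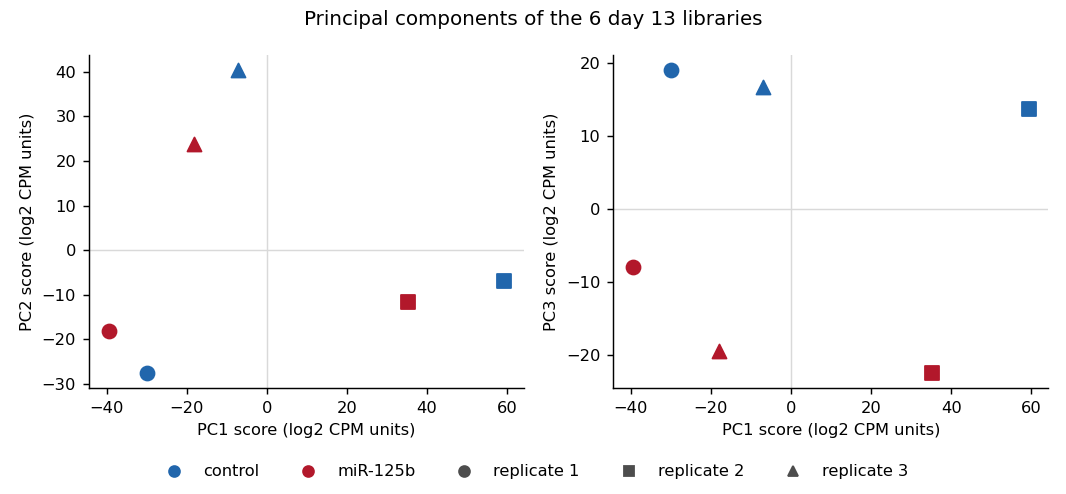
Scores of the 6 day 13 libraries on the first against the second (left) and the third (right) principal component of log2 CPM, with colour for the construct and symbol for the replicate number. Same-numbered libraries lie together on the first component, which held 49.4% of the variance, and the constructs part on the third, which held 11.5%.

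Gata1 and Arid3a were read first. Gata1 stood at 219, 419 and 291 CPM in miR-125b replicates 1 to 3 and at 227, 492 and 344 CPM in the controls, a log2 fold change of -0.18 ± 0.15 (SE; edgeR adjusted p = 0.876). The groups overlapped, and a guide that shortens the protein need not lower the count, so this does not test the edit. Arid3a stood at 45.4, 57.5 and 53.7 CPM with miR-125b and at 49.5, 61.5 and 71.9 CPM in the controls. It was lower in 3 of 3 pairs, but the groups overlapped and the log2 fold change of -0.22 ± 0.16 (SE) did not pass the test (edgeR adjusted p = 0.85). The genes of the endogenous miRNA and its relatives and host, Mir125b-1, Mir125b-2, Mir125a and Mir99ahg, had 0 counts in all 6 libraries, and the miRNA itself is not measured by these libraries.

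Arid3a gives a reason to read the doxycycline labels with care. In the libraries labelled as day 13 after doxycycline was taken away on day 10, which have their own controls, Arid3a was at 31.4, 35.6 and 26.7 CPM with miR-125b and at 68.1, 64.1 and 76.3 CPM without it. Those groups did not overlap, and the log2 fold change was -1.15 ± 0.16 (SE; edgeR adjusted p = 0.00119). At day 13 the named target was thus lower where the labels say that doxycycline had been withdrawn, and within the spread where they say that it was continued. In earlier libraries labelled as on doxycycline it was lower too. The means were 31.8 against 58.5 CPM in the controls at day 10 (-0.87 ± 0.16 SE, edgeR adjusted p = 0.00458). At day 2 they were 34.1 against 59.7 CPM (-0.80 ± 0.16 SE, edgeR adjusted p = 0.138). The difference between the day 13 sets was 0.93 ± 0.23 (SE) on the log2 scale, with an unadjusted p of 0.000565 and an edgeR adjusted p of 0.835. Whether the labels of the sets hold was not tested, so the 6 libraries are described here as labelled continued, and values of the withdrawal set are put beside the main results.

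The libraries with miR-125b held more of a few granulocyte transcripts than the controls, and most other genes differed little. Mpo, encoding the neutrophil granule enzyme myeloperoxidase, rose 42.2-fold, and Prss34, encoding a serine protease of basophils, rose 26.7-fold, and these were the 2 genes called. They are 2 of 13419 genes tested, or 0.0149%, at an edgeR adjusted p under 0.05, and no gene was called lower. Before adjustment for the number of tests, 855 genes had an unadjusted p under 0.05, or 6.37%, of which 359 were higher (2.68%) and 496 lower (3.7%) with miR-125b. The median log2 fold change of all genes was -0.012, with quartiles at -0.156 and 0.094. The median SE of a gene was 0.145 on the log2 scale. Differences of the size of that SE were not detectable gene by gene.

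Mpo, at chr11:87793581-87804413 on the plus strand, was at 10.2, 12.6 and 7.07 CPM in miR-125b replicates 1 to 3, from 213, 225 and 128 counts. The controls were at 0.382, 0.0611 and 0.279 CPM, from 8, 1 and 5 counts. Every miR-125b library was thus far above every control, with means of 9.95 ± 2.76 and 0.241 ± 0.164 CPM (SD, n = 3 each). The log2 fold change was 5.40 ± 0.68 (SE), or 42.2-fold (edgeR adjusted p = 0.00447). In the withdrawal set Mpo was at 17.4, 28.5 and 13.1 CPM with miR-125b and at 0.318, 0.0478 and 0.129 CPM in the controls, a log2 fold change of 7.01 ± 0.71 (SE; edgeR adjusted p = 8.35e-05). The difference of the effect between the sets, -1.61 ± 1.25 (SE) on the log2 scale, had an edgeR adjusted p of 0.999. In bulk RNA, more cells of a type and more RNA per cell cannot be told apart.

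Prss34, at chr17:25298394-25300165 on the plus strand, was at 8.34, 12.4 and 4.97 CPM with miR-125b, from 174, 222 and 90 counts. In the controls it was at 0.0955, 1.04 and 0 CPM, from 2, 17 and 0 counts. The groups did not overlap, and control replicate 2 was the highest of the controls as miR-125b replicate 2 was of its group. The log2 fold change was 4.74 ± 0.70 (SE), or 26.7-fold (edgeR adjusted p = 0.0171), against 5.19 ± 0.72 (SE; edgeR adjusted p = 0.00141) in the withdrawal set. Both calls depend on the pairing: without the replicate block, Mpo had an edgeR adjusted p of 0.183 and Prss34 of 0.999 at log2 fold changes of 5.28 and 4.54, and 0 genes were called, with 388 at an unadjusted p under 0.05 (2.89%). Leaving out the control library of replicate 1 moved Mpo to an edgeR adjusted p of 0.0801, with a log2 fold change of 5.46. Prss34 missed the threshold without miR-125b replicate 1 (0.0883), miR-125b replicate 3 (0.0866), control replicate 1 (0.135) or control replicate 3 (0.124), these being edgeR adjusted p-values. It also missed it in a fit of the 6 libraries alone (edgeR adjusted p = 0.0891) and with a filter that kept any gene with a count (edgeR adjusted p = 0.0624). Without the pair of replicate 1, 2 or 3 neither gene was called.

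**Figure D2:**
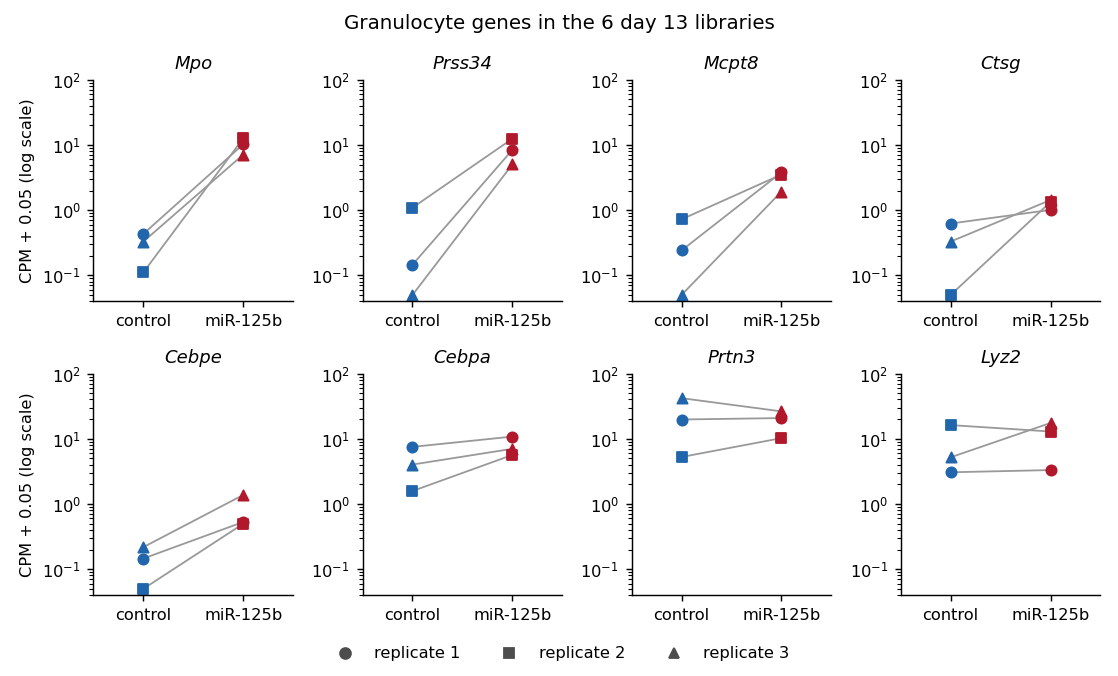
CPM of 8 granulocyte genes in each library, with 0.05 added and a log axis, the lines joining control (blue) and miR-125b (red) of the same replicate number. Mpo, Prss34, Mcpt8, Ctsg and Cebpe were higher in every miR-125b library than in any control, whereas the groups overlapped for Cebpa, Prtn3 and Lyz2.

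The list of neutrophil granule genes and their regulators held 19 genes, of which 12 passed the filter on low counts. That filter keeps genes that are high in any group of the series, so members seen only with miR-125b could enter through that group. Of the 12, 7 were higher at an unadjusted p under 0.05 and 0 were lower, where 2.68% and 3.7% of all genes were. Without overlap 5 were higher and 1 lower, where 4.4% and 4.12% of all genes were. The summed level of the list was 928, 611 and 964 CPM with miR-125b and 999, 591 and 906 CPM in the controls, with no common direction. Most of each sum came from S100a8, Cst7 and Plac8, whose single levels are not given here. The 1 member lower without overlap was among these genes too. The lowest log2 fold change of the 12 was -0.17. The median log2 fold change of the 12 was 1.64. With a minimum average log2 CPM of 2, which leaves out the low members, the median was 0.308. Cebpe, a transcription factor of late granulocyte maturation, was at 0.479, 0.447 and 1.33 CPM with miR-125b and at 0.0955, 0 and 0.168 CPM in the controls. Its groups did not overlap, and its log2 fold change was 2.92 ± 0.83 (SE; edgeR adjusted p = 0.433). S100a9, a subunit of the neutrophil protein calprotectin, had 35 counts over the 3 miR-125b libraries and 0 over the controls. Set against a floor of 3 counts over the control group it was at least 11.4-fold higher, and its edgeR adjusted p was 0.193.

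Ms4a3, a membrane gene of granulocyte and monocyte progenitors, was at 2.88, 3.02 and 1.66 CPM with miR-125b and at 1.24, 1.77 and 0.335 CPM in the controls. It was higher in 3 of 3 pairs with overlapping groups, at a log2 fold change of 1.25 ± 0.42 (SE; edgeR adjusted p = 0.593). Cathepsin G, encoded by Ctsg, is a protease stored with myeloperoxidase. It was at 0.959, 1.29 and 1.38 CPM with miR-125b against 0.573, 0 and 0.279 CPM, groups that did not overlap. Cebpa, the factor that directs progenitors to the granulocyte and monocyte lines, was at 10.7, 5.59 and 6.96 CPM against 7.45, 1.53 and 3.97 CPM, higher in each pair with overlapping groups.

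Other genes of the same granules did not all share this pattern. Elane, encoding neutrophil elastase, was at 0.144, 0.615 and 0.221 CPM with miR-125b and at 0.0955, 0 and 0.112 CPM in the controls, without overlap but from few counts. Prtn3, encoding proteinase 3 of the same granules, was at 20.7, 10.2 and 26.2 CPM with miR-125b and 19.7, 5.2 and 41.9 CPM in the controls, with no common direction. Lyz2, the lysozyme gene of macrophages and neutrophils, was at 3.26, 12.9 and 17.4 CPM against 3.01, 16.1 and 5.14 CPM. Thus the controls already held Prtn3 and Lyz2 transcripts, while Mpo was close to absent from them. The 7 members that did not pass the filter were Gfi1, Csf3r, Ltf, Camp, Ngp, Fcnb and Mgst1. Among these, Ltf and Ngp of the secondary granules had 1, 4 and 12 and 0, 5 and 12 counts in the miR-125b libraries and at most 1 count in a control, and Gfi1 had 0 in all 6.

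Promoters are shown for 4 genes of the same granules because Mpo, Elane and Ctsg did not overlap between the groups and Prtn3 did. The RefSeq table of build GRCm38.p6 held 1 promoter for 15 of the 19 list genes. The 250 bases before the RefSeq start were searched on both strands for AGGAAGT, a sequence bound by PU.1, an ETS factor of the myeloid lines. It was present before 8 of the 15 genes and in 7.94% of 22862 promoters of the same length. TTNCNNAA, a loose form of the C/EBP motif, was present before 8 of 15 and in 37.3% of all promoters. The PU.1 letters were found before Mpo, Elane, Prtn3 and Ctsg, at 216, 77, 87 and 199 bases from the end of the match to the RefSeq start. For Mpo that start lies inside the gene span given above, which begins at chr11:87793581, just after the printed window. Most of the 250 bases searched for Mpo thus lie within that span. They were also found before Fcnb, Cst7, S100a8 and Lyz2, and not before S100a9, Cebpa or Ms4a3, so their presence did not sort the members by the difference between the groups. The windows lie at chr11:87793550-87793578, chr10:79886217-79886245, chr10:79879562-79879590 and chr14:56102763-56102791, the last on the minus strand, with the match in capitals. A match of letters is a description and not a measured binding site.
Mpo: tggagagagagAGGAAGTtgcctttgtcc
Elane: gtgtcccagggAGGAAGTagggctgtggc
Prtn3: aaactggaaggAGGAAGTgggacccacag
Ctsg: agaggaagaaaAGGAAGTagtcacctgtt

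In the mast cell and basophil list Prss34 rose, and several mast cell genes were highest in replicate 2 of both groups. Of 22 genes listed, 20 were tested, with a median log2 fold change of 0.012, 10 higher and 10 lower. At an unadjusted p under 0.05, 2 of 20 were higher, where 2.68% of all genes were. Those 2 were Prss34 and Mcpt8, a basophil granule protease. Mcpt8 was at 3.74, 3.47 and 1.88 CPM with miR-125b and at 0.191, 0.673 and 0 CPM in the controls. The groups did not overlap, and the log2 fold change was 3.48 ± 0.82 (SE; edgeR adjusted p = 0.336), beside 4.91 (edgeR adjusted p = 0.00829) in the withdrawal set. The mast cell carboxypeptidase gene Cpa3 was at 11.2, 98.4 and 21.3 CPM with miR-125b and 37.1, 132 and 14.3 CPM in the controls. Il1rl1, the interleukin-33 receptor of mast cells and basophils, was at 17.5, 193 and 19.8 CPM against 49.6, 235 and 24 CPM (log2 fold change -0.64 ± 0.45 SE; edgeR adjusted p = 0.85). Replicate 2 was thus the highest of both groups for Cpa3 and Il1rl1, as it was for Gata2, a factor of progenitors and mast cells, at 331, 866 and 376 CPM against 343, 896 and 366 CPM. Srgn, the proteoglycan core of granules, did not share this order, at 299, 293 and 324 CPM against 316, 380 and 320 CPM. Reads of the near-identical tryptase copies Tpsab1 and Tpsb2 may have been divided between them.

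Eosinophil and macrophage genes were mostly near 0. Of the 9 eosinophil genes 2 were tested, and Epx, Ear1, Ear2, Ear6, Il5ra and Ccr3 had 0 counts in all 6 libraries. Prg2, the major basic protein also found in basophils, had 25 counts with miR-125b and 3 in the controls, at 0.144, 0.838 and 0.386 CPM against 0, 0 and 0.168 CPM (edgeR adjusted p = 0.743). Siglecf, a lectin of eosinophils, was at 23.6, 11.8 and 17.1 CPM against 33.3, 13.8 and 16 CPM. Among 23 monocyte and macrophage genes, 14 were tested with a median log2 fold change of -0.015. Only Cd14, the lipopolysaccharide co-receptor, had an unadjusted p under 0.05, from 13 counts with miR-125b and 2 in the controls. Mpeg1, encoding perforin-2, was at 0.192, 0.112 and 0.939 CPM against 0.143, 0.0611 and 0.0559 CPM, miR-125b replicate 3 being the high one. Itgam, the integrin CD11b, was at 0.144, 0.447 and 0.773 CPM against 0, 0.245 and 0.335 CPM. Fcgr3, an Fc receptor, was lower in 3 of 3 pairs at 9.92, 26.3 and 9.94 CPM against 10.6, 34.4 and 17.7 CPM. The macrophage complement gene C1qb had 0 counts in all 6 libraries, and Spi1, which encodes PU.1, was at 41.9, 32.3 and 47.4 CPM against 41.8, 42.7 and 51.9 CPM.

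Markers of lymphocytes and liver tissue were low and did not separate the groups. The summed level of the 13 lymphoid genes was 10.3 to 52.0 CPM with miR-125b and 6.05 to 53.9 CPM in the controls, most of it Nkg7, and the T cell gene Cd3e had at most 1 count in a library. The 16 genes of liver, stroma and endothelium summed to 23.9 to 54.5 CPM with miR-125b and to 7.28 to 61.8 CPM in the controls. Alb, Apoa1, Ttr, Krt8 and Col3a1 were at 0 in all 6 libraries, and Pdgfrb, a stromal receptor, was at 46.1, 17.8 and 40.1 CPM against 48.4, 2.26 and 36.1 CPM. Their part in the results above was not tested.

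Reported targets of miR-125b were hardly lower as a group in these libraries. Of 40 targets listed from the literature 32 were tested, with a median log2 fold change of -0.018 against -0.012 for all genes. There were 17 lower and 15 higher, and 8 were lower and 6 higher in 3 of 3 pairs, where 17.3% and 15.1% of all genes were. In the withdrawal set the same 32 genes had a median of -0.277. In that set 8 of them were called lower, where 1.86% of all genes were called in either direction. Klf13, whose site is printed above, had log2 fold changes of -0.22 in the continued set (edgeR unadjusted p = 0.155) and -0.74 in the withdrawal set.

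Abtb1 had the lowest p of the listed targets. It was at 48.4, 59.0 and 68.6 CPM with miR-125b and at 60.1, 80.3 and 89.7 CPM in the controls. It was lower in 3 of 3 pairs with overlapping groups, at -0.38 ± 0.13 (SE; edgeR adjusted p = 0.593), against -1.23 ± 0.13 (SE; edgeR adjusted p = 5.82e-05) in the withdrawal set. The difference between the sets was 0.85 ± 0.18 (SE; unadjusted p = 0.000124, edgeR adjusted p = 0.707). Dusp6, a phosphatase acting on ERK kinases, was at 10.6, 21.0 and 15.1 CPM against 20.5, 21.1 and 19.5 CPM (-0.41 ± 0.19 SE, edgeR adjusted p = 0.769). Trp53inp1, a stress gene induced by p53, was at 16.6, 18.2 and 25.8 CPM against 18.1, 29 and 30.7 CPM (-0.35 ± 0.21 SE, edgeR adjusted p = 0.825). Mknk2, a kinase of the translation factor eIF4E, went the other way, at 251, 250 and 277 CPM against 212, 222 and 256 CPM (0.18 ± 0.07 SE, edgeR adjusted p = 0.708). These 4 were named for the lowest p of the list, so their directions do not describe the list. None of them passed the test over all genes.

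**Figure D3:**
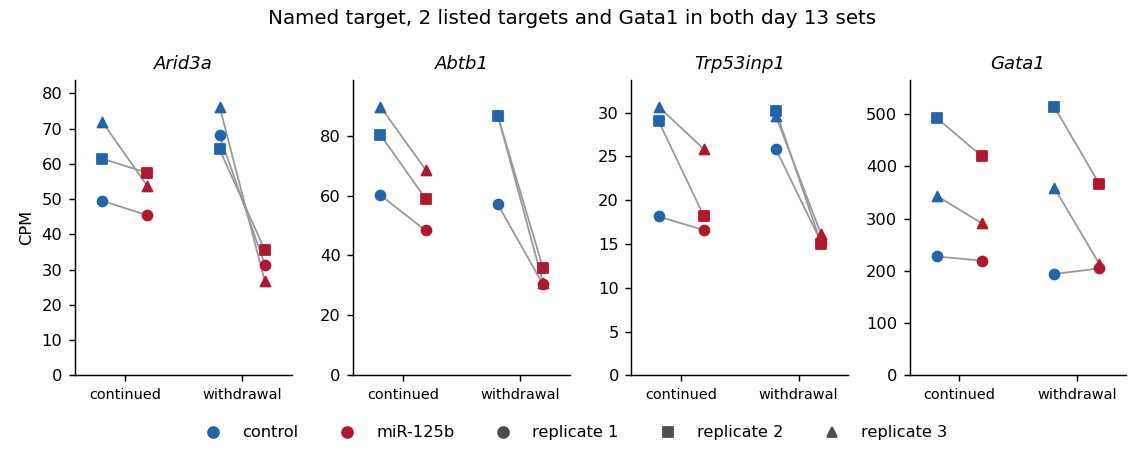
CPM of Arid3a, Abtb1, Trp53inp1 and Gata1 in control (blue) and miR-125b (red) libraries labelled continued and withdrawal at day 13, with lines joining libraries of the same replicate number and axes starting at 0. Arid3a groups overlap in the continued set (45.4 to 57.5 against 49.5 to 71.9 CPM) and are apart in the withdrawal set.

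Genes with seed matches lay close to those without in the continued set. Over the genes tested with an annotated 3′ UTR, the median log2 fold change was -0.0044 for 9659 genes without CTCAGGG and -0.011 for 2019 genes with at least 1. It was -0.024 for 349 genes with at least 2 matches and -0.019 for 718 genes with at least 1 8-base site. The share of genes lower with miR-125b was 51.0% without a match, 52.9% with 1 or more, 59.3% with 2 or more and 55.7% with an 8-base site. In the withdrawal set the medians of these 4 classes were 0.010, -0.064, -0.084 and -0.079. The SE of a single gene is not the spread of such a median, and the differences between these medians were not tested. In the pair of replicate 1 the medians ran the other way, at 0.00079 without a match, 0.011 with at least 1, 0.037 with at least 2 and 0.0087 with an 8-base site. No gene with a match was called. Of the genes with an 8-base site, 24 were lower and 11 higher at an unadjusted p under 0.05, or 3.34% and 1.53%, where 3.7% and 2.68% of all genes were.

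Megakaryocyte and platelet genes leaned lower with miR-125b without any of them passing the test. Of 28 genes listed 27 were tested, 23 were below 0 and 4 above, and the median log2 fold change was -0.257, beside 52.9% below 0 and a median of -0.012 over all genes. In 3 of 3 pairs 16 of the 27 were lower and 3 higher, where 17.3% and 15.1% of all genes were. At an unadjusted p under 0.05, 5 were lower, where 3.7% of all genes were. The summed level of the list was 5304, 9022 and 6625 CPM with miR-125b and 5844, 11123 and 7728 CPM in the controls, lower within each pair and highest in replicate 2 of both groups.

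The 4 members with the lowest p were platelet receptor genes. Treml1, a receptor stored in platelet granules, was at 11.2, 104 and 24.8 CPM with miR-125b and at 30.3, 163 and 50.5 CPM in the controls, a log2 fold change of -0.95 ± 0.29 (SE; edgeR adjusted p = 0.555). Clec1b, encoding the podoplanin receptor CLEC-2, was at 1.82, 18.3 and 7.29 CPM against 5.30, 26.5 and 14.6 CPM (-0.92 ± 0.38 SE, edgeR adjusted p = 0.720). Both were lower in every pair, and their groups overlapped, with replicates differing widely within a group. Gp9 and Gp1bb, subunits of the receptor for von Willebrand factor, were lower in every pair too. Gp9 was at 42.5, 110 and 74.3 CPM against 62.3, 149 and 89.6 CPM (-0.41 ± 0.15 SE, edgeR adjusted p = 0.668). Gp1bb was at 8.73, 40.1 and 18.1 CPM against 12.4, 44.5 and 31 CPM (-0.44 ± 0.19 SE, edgeR adjusted p = 0.738). The fifth gene under an unadjusted p of 0.05 was Rab27b, a granule transport GTPase, named after its values were seen. Pf4, the platelet chemokine, was at 1130, 2481 and 1698 CPM against 1612, 3488 and 1518 CPM, and the lineage factors Fli1, Gfi1b and Runx1 had log2 fold changes of -0.0042, -0.034 and 0.053. In the withdrawal set the list median was -0.377, with 6 members called lower and 0 higher, where 1.86% of all genes were called in either direction.

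Erythroid genes did not lean either way. Of 33 genes listed 30 were tested, 14 were higher and 16 lower, and the median log2 fold change was -0.039. Klf1, the factor of red cell genes, was at 26.6, 13.4 and 32.6 CPM with miR-125b and 26.8, 11.1 and 36.3 CPM in the controls. Epb42, encoding the membrane protein band 4.2, was lower in 3 of 3 pairs at 0.192, 0.727 and 1.60 CPM against 0.525, 1.28 and 4.02 CPM (-1.15 ± 0.49 SE, edgeR adjusted p = 0.720). It was the only tested member of the list with an unadjusted p under 0.05. Fech, the last enzyme of heme synthesis, was at 59.2, 74.1 and 76.6 CPM against 73.9, 74.8 and 96.9 CPM. Tmod1, an actin-capping protein of the membrane skeleton, was at 16.3, 7.60 and 18.9 CPM against 14.2, 4.46 and 16.7 CPM. Hba-a1, whose reads may be shared with its near-copy Hba-a2, was at 29.9, 6.60 and 16.2 CPM against 19.7, 11.9 and 40.4 CPM, with no common direction. Slc4a1, the band 3 gene of mature red cells, had 0 counts in all 6 libraries.

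Stem and progenitor genes had no common direction, and Erg and Slamf1 stood at opposite ends of the list. Of 27 genes listed 18 were tested, with a median of -0.014. Erg, an ETS factor of stem cells and megakaryocytes, was at 6.28, 1.62 and 1.16 CPM with miR-125b and at 1.24, 0.489 and 0.0559 CPM in the controls. It was higher in every pair, with overlapping groups. Its log2 fold change was 2.37 ± 0.70 (SE; edgeR adjusted p = 0.519), and 3.47 (edgeR adjusted p = 0.0145) in the withdrawal set. The test between the sets did not call Erg, so the effect is not shown to differ between them. Slamf1, the surface receptor CD150 of stem cells, was at 0.959, 7.43 and 2.43 CPM against 2.58, 10.6 and 5.09 CPM (-0.90 ± 0.28 SE, edgeR adjusted p = 0.537). Cd34 and Tek, a progenitor antigen and the angiopoietin receptor, followed the replicates. Cd34 was at 1.01, 12.7 and 2.21 CPM against 1.15, 24.5 and 2.12 CPM, and Tek at 1.01, 20.2 and 0.166 CPM against 4.39, 21.0 and 0.224 CPM. Hoxa9, Hoxa10 and Mecom had 0 counts in all 6 libraries, whereas Meis1 was at 138, 166 and 138 CPM against 137, 167 and 149 CPM.

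**Figure D4:**
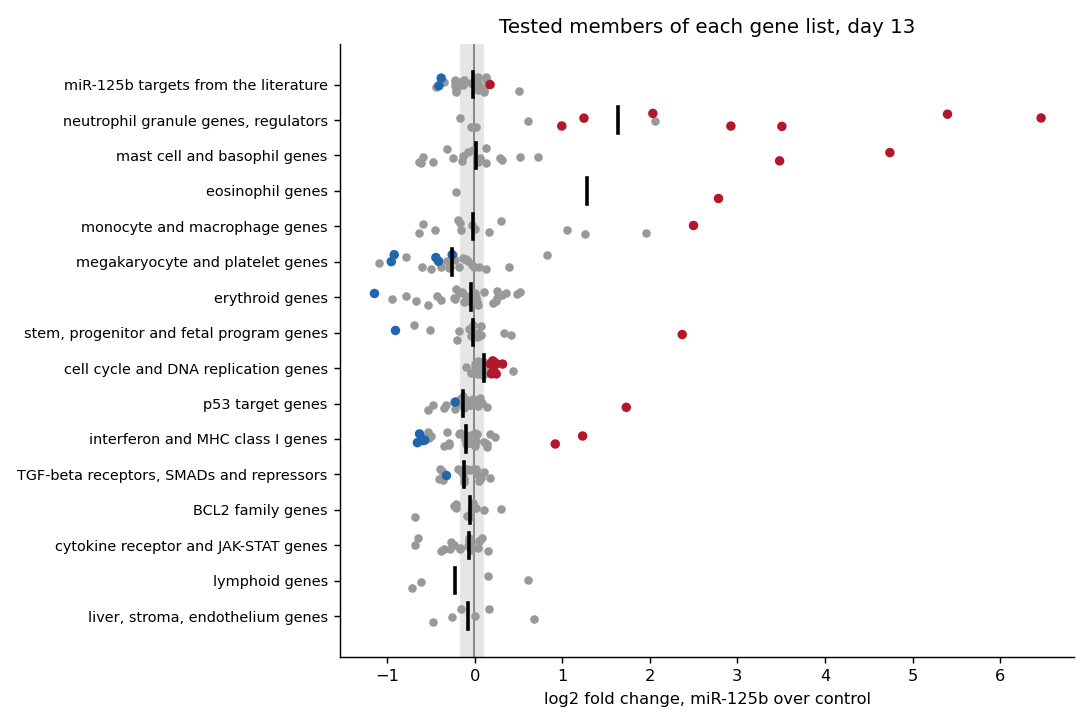
Log2 fold change (miR-125b over control) of each tested gene of the 16 lists, coloured where the unadjusted p is under 0.05 (red higher, blue lower), with a black bar at each list's median and a grey band from the lower to the upper quartile of all 13419 genes. The cell cycle list lies in a narrow range with its median at 0.107, and the megakaryocyte list has its median at -0.257.

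Genes of DNA replication and the cell cycle lay slightly above 0 in most of the list. All 40 listed genes were tested, 36 had a log2 fold change above 0 and 4 below, and the median was 0.107, where 47.1% of all genes were above 0. In 3 of 3 pairs 20 of the 40 were higher and 0 lower, where 15.1% and 17.3% of all genes were. The groups did not overlap for 9, all higher, where 4.4% of all genes were higher and 4.12% lower without overlap. At an unadjusted p under 0.05, 8 were higher, where 2.68% of all genes were. None of the 40 passed the test over all genes.

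The lowest p-values belonged to replication genes. Mcm3, a subunit of the MCM helicase that opens DNA at origins, was at 510, 455 and 496 CPM with miR-125b and at 443, 402 and 434 CPM in the controls. Its log2 ratios within pairs were 0.20, 0.18 and 0.19, and its fold change was 0.19 ± 0.07 (SE) on the log2 scale (edgeR adjusted p = 0.663). Mcm5, of the same helicase, was at 499, 449 and 452 CPM against 425, 359 and 395 CPM (0.25 ± 0.10 SE, edgeR adjusted p = 0.701). Tyms, thymidylate synthase, was at 149, 137 and 151 CPM against 132, 106 and 132 CPM (0.25 ± 0.10 SE, edgeR adjusted p = 0.701). The groups of these 3 genes did not overlap. Cdk6, a kinase of early G1 phase that keeps myeloid and megakaryocyte progenitors dividing, was at 384, 304 and 344 CPM against 330, 224 and 281 CPM (0.32 ± 0.13 SE, edgeR adjusted p = 0.702), higher in each pair. The other 4 under an unadjusted p of 0.05 were Mcm2, Mcm6, Mcm7 and Cdc6, named after their values were seen. Mki67, the proliferation antigen, was at 663, 774 and 687 CPM against 626, 669 and 722 CPM, and Ccne1, cyclin E1, at 31.4, 42.6 and 29.9 CPM against 36.5, 34.8 and 31.9 CPM. In the withdrawal set the list median was 0.159, and 2 members were called higher and 1 lower, where 1.86% of all genes were called in either direction.

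**Figure D5:**
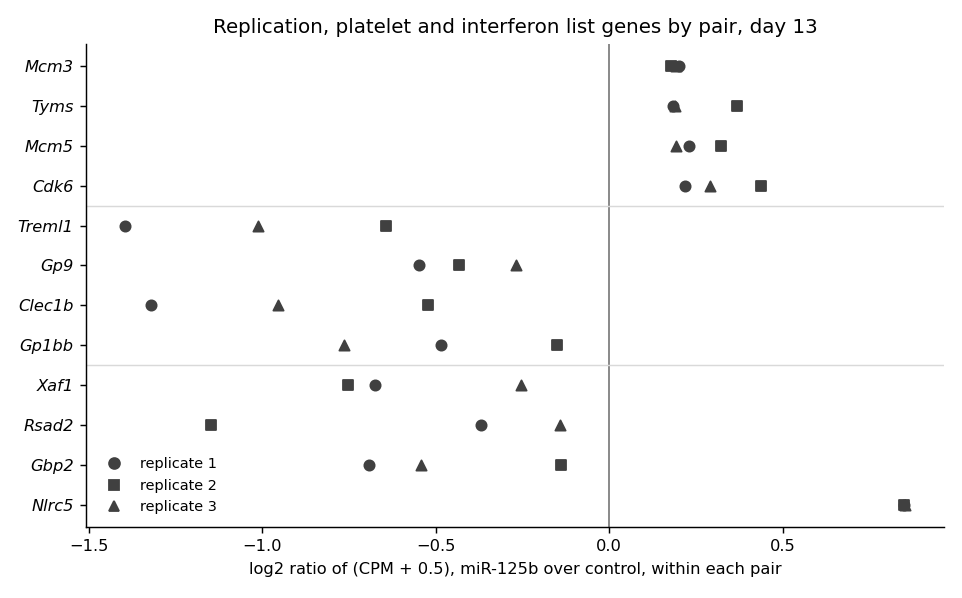
Log2 ratio of CPM + 0.5 of miR-125b over control within each pair, for 4 genes each of the cell cycle, megakaryocyte and interferon lists. Mcm3, Tyms, Mcm5, Cdk6 and Nlrc5 lie above 0 and the other genes below 0 in all 3 pairs.

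No gene of the p53 target list passed the test. Of 25 listed 24 were tested, 19 below 0 and 5 above, with a median of -0.130, where 52.9% of all genes were below 0. The list median was 0.057 in the withdrawal set, so the lean was not seen there. In 3 of 3 pairs 8 were lower and 0 higher, where 17.3% and 15.1% of all genes were, and 1 was lower and 1 higher at an unadjusted p under 0.05, where 3.7% and 2.68% were. Cdkn1a, the cyclin-dependent kinase inhibitor p21, was at 111, 106 and 163 CPM with miR-125b and 127, 166 and 180 CPM in the controls (-0.33 ± 0.18 SE, edgeR adjusted p = 0.800). Fas, a death receptor, was at 1.25, 2.96 and 2.71 CPM against 1.72, 4.89 and 3.24 CPM. Ercc5, a nuclease of DNA repair, was at 24.7, 20.8 and 24.7 CPM against 24.5, 24.6 and 33.4 CPM, and Pltp, a phospholipid transfer protein, at 0.431, 0.168 and 0.110 CPM against 0.0478, 0 and 0.168 CPM. These last 2 had unadjusted p-values of 0.0448 and 0.0452 in opposite directions, and neither moved alike in all pairs.

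In the interferon and MHC class I list, the activator of MHC class I and a few interferon-stimulated genes stood on opposite sides of 0. Of its 34 genes 32 were tested, 21 below 0 and 11 above, with a median of -0.098, where 52.9% of all genes were below 0. The list median was 0.0051 in the withdrawal set. In 3 of 3 pairs 8 were lower and 1 higher, where 17.3% and 15.1% of all genes were. Nlrc5, which activates MHC class I genes, was the 1 higher in each pair, at 9.88, 5.48 and 11.9 CPM with miR-125b and 5.25, 2.81 and 6.37 CPM in the controls. Its log2 ratio was 0.85 in each of the 3 pairs although the groups overlapped, and the fitted log2 fold change was 0.92 ± 0.24 (SE; edgeR adjusted p = 0.386), beside 1.07 (edgeR adjusted p = 0.0217) in the withdrawal set. Xaf1, a gene that promotes apoptosis, was at 1.73, 2.63 and 3.20 CPM against 3.06, 4.77 and 3.91 CPM (-0.65 ± 0.26 SE, edgeR adjusted p = 0.701). Rsad2, encoding the antiviral enzyme viperin, was at 1.77, 4.08 and 3.09 CPM against 2.44, 9.66 and 3.47 CPM (-0.63 ± 0.26 SE, edgeR adjusted p = 0.702). Gbp2, a guanylate-binding protein, was at 1.58, 1.57 and 1.88 CPM against 2.87, 1.77 and 2.96 CPM (-0.59 ± 0.25 SE, edgeR adjusted p = 0.720). These 3 interferon-stimulated genes were lower in each pair, at levels of a few CPM. The other two with an unadjusted p under 0.05, named after their values were seen, were Rtp4, lower, and the class I gene H2-Q7, higher, whose reads may be shared with its near-copies.

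Signalling and survival lists held small values with no call. Of 22 tested genes among 26 of TGF-beta signalling, 16 were lower and 6 higher, with a median of -0.120, where 52.9% of all genes were below 0. Their median was -0.0017 in the withdrawal set. Skil, a SMAD repressor, was at 16.2, 44.2 and 25.6 CPM with miR-125b and 21.9, 52.5 and 31.8 CPM in the controls (-0.33 ± 0.14 SE, edgeR adjusted p = 0.725). Acvr1b, an activin receptor, was lower in each pair, as was Id1, a target of bone morphogenetic protein signalling. Tgfb1, the ligand, was at 519, 735 and 588 CPM against 504, 806 and 698 CPM. Of 18 BCL2 family genes 13 were tested with a median of -0.054. Bcl2l2, an inhibitor of apoptosis, was at 24.6, 25.7 and 24 CPM against 28.5, 30.6 and 28.1 CPM, groups that did not overlap (-0.23 ± 0.18 SE, edgeR adjusted p = 0.862). Bbc3 and Bik, which promote apoptosis, were lower in 3 of 3 pairs, and Bcl2l11, encoding BIM, was higher in 2. All 21 cytokine receptor and JAK-STAT genes were tested, 16 lower and 5 higher, with a median of -0.068, beside the same 52.9% of all genes below 0. Their median was -0.141 in the withdrawal set. Socs3, a feedback inhibitor, was at 14.3, 11 and 23.2 CPM against 16, 24 and 35 CPM (-0.65 ± 0.35 SE, edgeR adjusted p = 0.800). Osm, the cytokine oncostatin M, and Pim2, a kinase induced by STAT5, were lower in each pair, and Stat5a was higher in each.

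Beside Mpo, the 9 genes with the lowest p among those higher in all pairs and above an average log2 CPM of 2 had no function in common that the lists covered, apart from Nlrc5. They were Gm14303, Rhobtb3, Rpl15-ps3, Nlrc5, Dach1, Hsph1, Rassf3, Slain1 and Tdrkh, with edgeR adjusted p-values of 0.137 to 0.410. Rhobtb3, a BTB domain protein, was at 12.3, 7.38 and 13.7 CPM with miR-125b and 7.07, 4.40 and 6.09 CPM in the controls, without overlap (0.91 ± 0.18 SE, edgeR adjusted p = 0.137). Dach1, a transcriptional repressor, was at 7.96, 7.71 and 7.34 CPM against 4.49, 3.97 and 1.45 CPM, again without overlap (1.28 ± 0.33 SE, edgeR adjusted p = 0.386). Hsph1, a chaperone of the HSP110 family, was at 192, 149 and 126 CPM against 124, 98.8 and 108 CPM (0.50 ± 0.13 SE, edgeR adjusted p = 0.393). The microtubule regulator Slain1 was at 4.94, 4.64 and 4.69 CPM against 2.15, 4.04 and 1.79 CPM, and Tdrkh, a Tudor domain protein, at 17.7, 19.0 and 15 CPM against 11, 13.1 and 9.0 CPM, both without overlap. Rassf3, of the Ras association family, overlapped between the groups. Gm14303 and Rpl15-ps3 are processed pseudogenes whose reads may belong to their parent genes.

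The 10 named lower genes by the same rule were Ptpn18, 2810025M15Rik, H2afj, Ralgps2, Tspoap1, Prkar2a, Wipi1, Gyg, Cd300a and Sept8, with edgeR adjusted p-values of 0.137 to 0.350. Ptpn18, whose seed match is printed above, was at 5.08, 6.65 and 7.67 CPM with miR-125b and 10.5, 10.8 and 14.5 CPM in the controls. Its groups did not overlap, at -0.89 ± 0.18 (SE; edgeR adjusted p = 0.137), and it was the only gene of the 10 with a match in its annotated 3′ UTR. Tspoap1, which binds the translocator protein TSPO, was at 47.2, 108 and 75.1 CPM against 161, 167 and 142 CPM (-1.05 ± 0.23 SE, edgeR adjusted p = 0.253). It lies at chr11:87760541-87785928 on the plus strand, 7652 bases before Mpo, so a lower gene and a called higher gene are neighbours on the same strand. Tspoap1 was at -1.38 ± 0.23 (SE; edgeR adjusted p = 0.00871) in the withdrawal set. At day 10 it was at 0.25 ± 0.23 (SE; edgeR adjusted p = 0.526), where Mpo was at 5.13 ± 0.60 (SE; edgeR adjusted p = 0.000668). A link between these genes was not tested. Wipi1, an autophagy protein, was at 4.41, 6.15 and 6.46 CPM against 7.26, 15.6 and 14.1 CPM. Gyg, which primes glycogen synthesis, was at 33.6, 38.2 and 40.1 CPM against 43.2, 50.1 and 49.9 CPM. Neither Wipi1 nor Gyg overlapped between the groups, while H2afj, a histone H2A variant, was lower in each pair with overlap at 48.0, 41.0 and 59.6 CPM against 71.6, 58.5 and 77.5 CPM. H2afj was at -0.49 ± 0.10 (SE; edgeR adjusted p = 0.137) in the continued set and at -0.03 (edgeR adjusted p = 0.932) in the withdrawal set, and the difference had an unadjusted p of 0.00420 and an edgeR adjusted p of 0.999. Ralgps2, an exchange factor for Ral GTPases, Prkar2a, a regulatory subunit of protein kinase A, Cd300a, an inhibitory receptor of myeloid cells, and Sept8, a septin, were lower in each pair with overlapping groups. 2810025M15Rik is annotated as a transcribed pseudogene.

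The difference of the miR-125b effect between the libraries labelled continued and withdrawal was tested for every gene, and 0 of 13419 passed an edgeR adjusted p under 0.05 (0.0%), with 437 at an unadjusted p under 0.05 (3.26%). DESeq2 called 1, Zfp385a, a reported target with an 8-base site, named after its value was seen. Thus the 249 genes called in the withdrawal set (1.86%) and the 2 called in the continued set are counts from separate tests, and a gene called in one set is not thereby shown to differ from the other.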

How the data were processed

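RNA of 24 libraries was sequenced, of which 6 enter the comparison described. The authors deposited whole-number read counts per gene. Reads were handled with fastp, HISAT2 2.0.5 and featureCounts on mm10, per the submitters' processing notes, and the annotation release, strandedness and filters are not given in the sources used here. Reads of overlapping, antisense or near-identical genes may therefore have been divided wrongly. Of 47069 gene identifiers, 46574 were matched to a name, and the unmatched took 0.0181% to 0.0256% of a day 13 library. All 24 columns were matched to libraries by description, with 0 left over.

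Counts were tested with edgeR 4.0.16 in R 4.3.3 (filterByExpr, TMM, robust quasi-likelihood fit), with 8 groups and the replicate number as a block over all 24 libraries, leaving 13419 genes and 14 residual degrees of freedom. P-values were two-sided and Benjamini-Hochberg adjusted over all genes, the threshold being 0.05. The SE comes from the quasi-likelihood F statistic. The block was the main fit because the comparison pairs the columns. The labels do not say what a number shares, and all 84 same-number pairs of libraries in different groups had correlated deviations (0.163 to 0.781, median 0.475). The median of -0.304 for different numbers is not separate evidence, because deviations from a group mean cancel within the group. Ratios within pairs used a pseudocount of 0.5 CPM. The script was tested on simulated data.

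Genes were named by rule: Gata1, Arid3a, called genes, the 10 higher and 10 lower genes of lowest p among those alike in 3 of 3 pairs whose mean log2 CPM was 2 or more, up to 4 members of each of 16 lists, and defining markers by level. The comparison and the lists were chosen with earlier results of these data known. Alternatives were the fit without the block, other size factors, DESeq2 1.42.0, other filters, the 6 libraries alone, and leaving out libraries or pairs. Seed matches used the longest 3′ UTR in GENCODE M21.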

Additional observations from a re-analysis of the deposited data

How the results depend on the processing

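The number of genes called was small under every setting tried, and none of the 74 genes refitted changed direction under any of them. Without the replicate block 0 genes were called, the median SE being 0.184 against 0.145 with it. DESeq2 called 15 and the cause was not tested, a minimum average log2 CPM of 2 left 1 (Mpo), a fit of the 6 libraries alone called 4, the other size factors 2 and the filter on any count 3, and Prss34 was not called in the fit of 6 or with the filter on any count. Leaving out single libraries or pairs gave 0 to 5 called genes, with 0 without control replicate 1 or without any of the 3 pairs. The log2 fold change of Mpo ran from 4.79 to 5.77 and that of Prss34 from 4.28 to 6.90 over those refits, and leaving out whole pairs put the edgeR adjusted p of Mpo at 0.0835 to 0.108. For the difference between the day 13 sets, DESeq2 called 1 gene and every other setting 0. Of the list medians, that of the eosinophil list, with 2 tested genes, ran from -0.225 to 2.91, and that of the neutrophil list from 0.308 to 2.61. With medians of 16 lists over 15 settings, 46 of 240 values moved by more than the spread between pairs. With 3 libraries a group and a median SE of 0.145, these counts resolve only large changes, and genes under about 1 CPM rest on few counts. Tspoap1 at -1.05, Wipi1 at -1.09, Dach1 at 1.28 and Gm14303 at 1.98 on the log2 scale were not called. Their edgeR adjusted p-values were 0.253, 0.289, 0.386 and 0.137. A gene that was not called may thus have changed by more than 1 on the log2 scale.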
